A study of Mus musculus with 24 samples.

Results

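Tumour necrosis factor (TNF) is the cytokine macrophages release soon after they sense bacteria, and 8 genes that make it, receive it and hold it back were followed here: the ligand Tnf, the receptors Tnfrsf1a and Tnfrsf1b, the sheddase Adam17, the receptor adaptors Traf1 and Traf2, and the brakes Tnfaip3 and Zfp36. They were chosen by name for their place in the pathway, with earlier results of these data known, and make up 8 of 13568 genes in the table. All 8 passed the filter on low values, at least 1 CPM (read counts scaled by library size) in at least 6 libraries, as did 11710 genes in all.

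The cells were bone marrow-derived macrophages, which are grown from marrow progenitors in culture. They came from 12 male C57Bl/6 mice, of which 6 had diabetes induced with streptozotocin, a toxin of insulin-producing beta cells, and 6 were untreated wild-type controls. The marrow of every mouse was differentiated for 7 days in medium with 20% L929-conditioned medium and 5 mmol/L glucose, so cells of both phenotypes were grown in the same glucose. One culture of each mouse was left unstimulated and the other was given 100 ng/mL lipopolysaccharide (LPS) and 10 ng/mL interferon-gamma for 6 h. This gave 4 groups of 6 RNA-seq libraries: control unstimulated, diabetic unstimulated, control stimulated and diabetic stimulated. The labels used here give no age for the mice. Since only the diabetic mice had received streptozotocin, an effect of the toxin and an effect of diabetes cannot be told apart.

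TNF is made as a membrane protein and is cut free by ADAM17, which also sheds both TNF receptors. TNFR1, encoded by Tnfrsf1a, carries a death domain and is found on most cells, whereas TNFR2, encoded by Tnfrsf1b, lacks one, binds TRAF proteins directly and is prominent on leukocytes. TRAF2 recruits ubiquitin ligases to the activated receptors, and TRAF1, itself a target gene of NF-kB, pairs with it. A20, the product of Tnfaip3, edits ubiquitin chains on receptor complexes and ends NF-kB signalling. Tristetraprolin, the product of Zfp36, binds AU-rich elements in the 3' untranslated region of Tnf mRNA and brings about its decay. Both brakes are induced by the same signals that induce Tnf.

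Since Zfp36 acts on Tnf mRNA through its AU-rich elements, the densest 30-base stretch of such elements is shown for Tnf and for Zfp36 itself, with the nonamer TTATTTATT in capitals, from the GENCODE M21 transcripts (GRCm38, minus strand in both genes).
Tnf, chr17:35199674-35199703: ttaTTATTTATTTATTATTTATTTATTtgc
Zfp36, chr7:28376951-28376980: ttatgacgactTTATTTATTgtattaagat
The Tnf stretch held 4 overlapping nonamers within 30 bases. In the whole 3' untranslated region, Tnf had 5 nonamers and 8 heptamers TATTTAT in 764 bases. Zfp36 had 1 nonamer and 3 heptamers in 774 bases, and Tnfaip3 had 1 nonamer and 2 heptamers in 1821 bases. Neither motif was in the 3' untranslated region taken for Tnfrsf1a, Tnfrsf1b, Adam17, Traf1 or Traf2. Of 10803 tested protein-coding genes 7.24% held the nonamer, 28.2% the heptamer, and 0.5% at least 3 nonamers. The heptamer lies within the nonamer, so these counts overlap.

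Of the members whose induction differed between the phenotypes as described later, Tnfaip3 and Tnfrsf1b are shown with the bases just before their RefSeq start (GRCm38.p6, minus strand). Capitals mark matches to the AP-1 motif TGANTCA and the kappaB consensus in Tnfaip3, and to the interferon-gamma activated site (GAS) TTCNNNGAA and the interferon-stimulated response element core (ISRE) in Tnfrsf1b, searched on both strands.
Tnfaip3, chr10:19015411-19015547: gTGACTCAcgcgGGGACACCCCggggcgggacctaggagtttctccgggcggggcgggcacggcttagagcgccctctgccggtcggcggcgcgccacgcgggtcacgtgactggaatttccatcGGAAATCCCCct
Tnfrsf1b, chr4:145246871-145247120: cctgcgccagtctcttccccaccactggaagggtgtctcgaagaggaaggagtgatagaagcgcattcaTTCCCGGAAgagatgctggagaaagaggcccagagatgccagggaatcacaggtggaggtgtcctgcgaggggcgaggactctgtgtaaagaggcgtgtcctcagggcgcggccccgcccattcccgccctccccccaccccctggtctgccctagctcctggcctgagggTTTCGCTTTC
The Tnfaip3 stretch held an AP-1 match at -136 to -130 and kappaB matches at -125 to -116 and at -12 to -3. The Tnfrsf1b stretch held a GAS match at -181 to -173 and an ISRE match in its last 10 bases. In the 250 bases before the start, GAS also matched in Tnfrsf1a and Zfp36. TATAAA, searched on the coding strand, matched in Tnf at -29 to -24 and in Tnfaip3 at -225 to -220, outside the bases shown. Adam17, Traf1 and Traf2 held none of the 5 motifs, although the induction of Traf1 and Traf2 differed between the phenotypes as well. Of 32851 RefSeq promoters of the same length 3.9% held the kappaB consensus, 6.75% AP-1, 7.02% GAS, 2.98% ISRE and 7.59% TATAAA. A further RefSeq start of Tnfaip3 had no match. A match of letters is a description and not a bound site.

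The macrophage identity of the cultures was checked by 9 markers, all in the table and tested. Their summed level was 16926 to 18328 CPM in control unstimulated, 16668 to 19917 in diabetic unstimulated, 15055 to 18186 in control stimulated and 14315 to 16392 in diabetic stimulated libraries, with Lyz2 the highest of them. Single macrophage markers moved with the phenotype. At rest the control libraries held Adgre1, the F4/80 antigen, at 2126 to 2450.1 CPM and the diabetic ones at 1683 to 1788 CPM, and Fcgr1, an Fc receptor, stood at 231 to 419 and 120.5 to 142 CPM. Cd14 was also lower at rest in diabetic cells without overlap. After stimulation Adgre1, Fcgr1 and Cd68 were lower without overlap, Cd68 with a control range of 1537 to 1926 CPM and a diabetic range of 1172 to 1400.1 CPM. Of 10 neutrophil markers 2 were in the table, and their sum was 14.3 to 23.3 CPM in control unstimulated, 34.1 to 43.7 in diabetic unstimulated, 28.8 to 34.9 in control stimulated and 38.9 to 50.9 in diabetic stimulated libraries. Of 5 B-lineage markers 2 were in the table, and their sum was 7.57 to 20.7, 24.3 to 58.3, 1.29 to 2.3 and 2.95 to 5.26 CPM in the same order, nearly all of it Ighm. Of 6 T and NK cell markers only Lck was in the table, at 0.265 to 0.613, 0.302 to 0.444, 36.7 to 60.9 and 31 to 46 CPM. Of 5 dendritic cell markers only Xcr1 was in the table, listed at 0 in every control unstimulated library and at 10.1 CPM or less elsewhere. No marker of mast cells or erythroid cells was in the table, and the only fibroblast marker, Dcn, reached 1.03 CPM at most. The neutrophil and B-lineage sums moved with the phenotype too, and the part of these markers and of the macrophage markers in the differences between phenotypes was not tested. In bulk RNA, fewer cells of a type and less RNA per cell cannot be told apart. Libraries held 16754771 to 34130060 reads in listed genes, so that 3 reads equalled 0.0835 to 0.1753 CPM. The least covered member value rested on 450 reads, so no member value lay near that floor of 3 reads. The part of counting error in the spread between libraries was not tested.

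**Figure D1:**
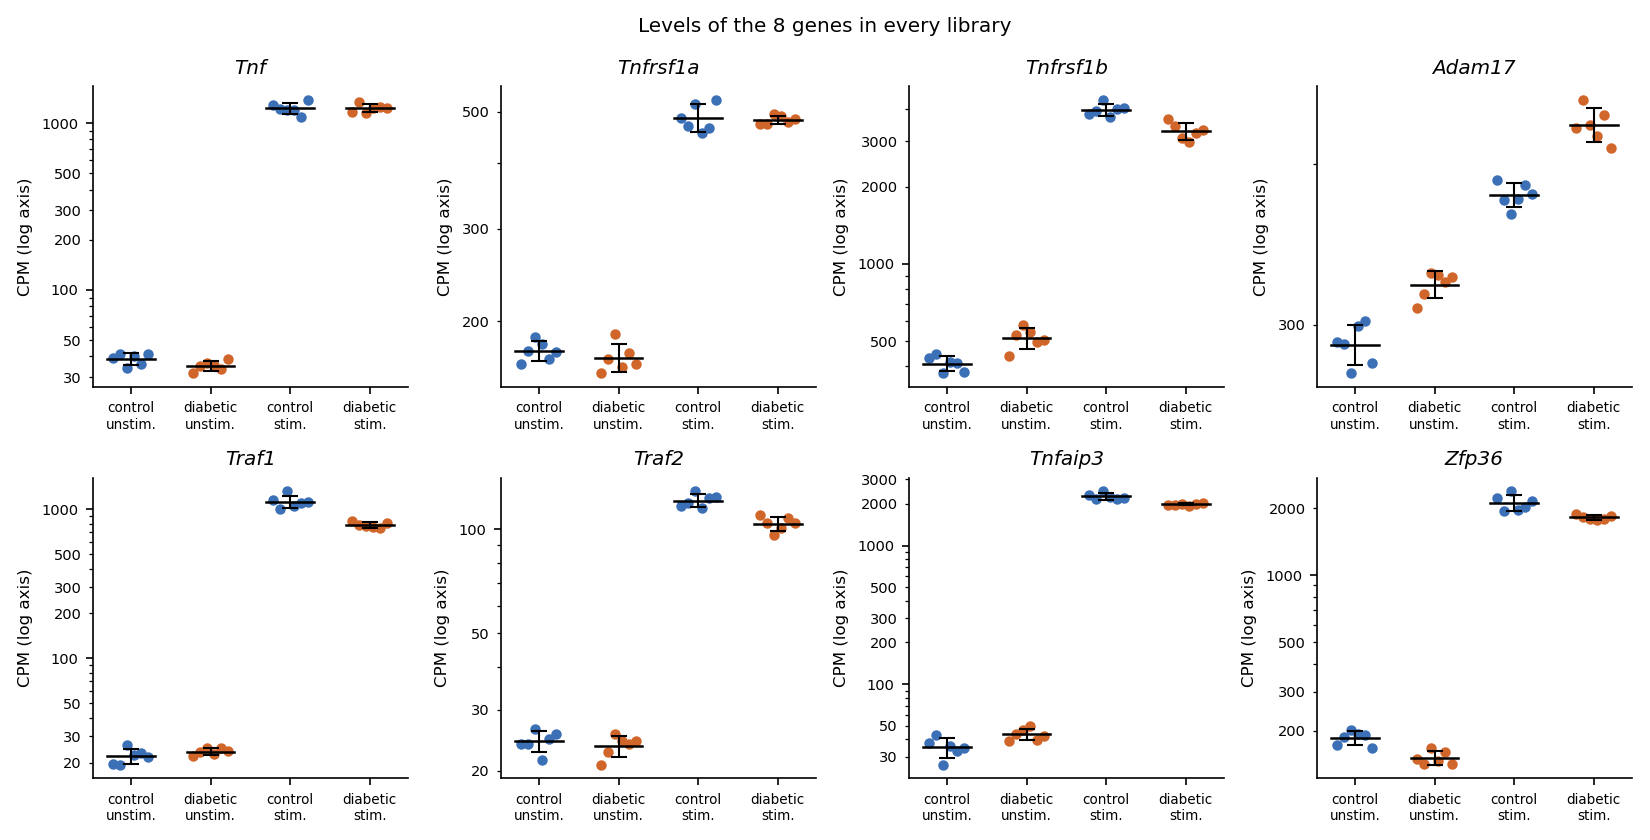
Level of the 8 genes in every library, in CPM on a log axis whose range differs between panels; each point is 1 of 6 libraries of a group, and black lines give the mean and SD. All 8 genes stood higher after stimulation in both phenotypes, Adam17 not so by total reads or with quantile normalization, and in stimulated cells the diabetic libraries lay below all control libraries for Tnfrsf1b, Traf1, Traf2, Tnfaip3 and Zfp36 and above them for Adam17, whereas Tnf and Tnfrsf1a overlapped.

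Unstimulated macrophages of both phenotypes already held mRNA for every member. Exon length was counted over every base in an exon of any annotated transcript, which can exceed the length of the expressed mRNA and understate a level per kb. For Zfp36 it was 3470 bases, its whole annotated span. The place of Zfp36 in the orders below, and its overlaps with neighbours, depend on that length. Compared per kilobase of exon, in control unstimulated cells the mean level was highest for Tnfrsf1b at 107 CPM per kb, followed by Tnfrsf1a at 67.8, Zfp36 at 53.4, Adam17 at 40.4 and Tnf at 23.6. Tnfaip3 at 4.85 and Traf2 at 4.76 CPM per kb overlapped between libraries, and Traf1 was lowest at 2.51. No other neighbours in this order overlapped. In diabetic unstimulated cells the order was the same except that Adam17, at 45 CPM per kb, and Zfp36, at 43.6, had changed places and overlapped, and Tnfaip3 and Traf2 did not overlap. Stimulation rearranged the order: in control stimulated cells Tnfrsf1b stood at 1043 CPM per kb, Tnf at 750.3 and Zfp36 at 611, where the last pair overlapped, and then came Tnfaip3 at 313, Tnfrsf1a at 188, Traf1 at 128, Adam17 at 52.9 and Traf2 at 23.7. The order in diabetic stimulated cells was the same, but here Tnfrsf1b at 862 CPM per kb and Tnf at 751 overlapped and Tnf and Zfp36, at 524, did not.

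What LPS and interferon-gamma did to the pathway was asked in each phenotype. All 8 members rose in both, of which Adam17 fell instead by total reads and with quantile normalization, and for none did the unstimulated and stimulated libraries overlap. Over all tested genes 91.3% passed the threshold of adjusted p under 0.05 in control cells, 34.9% upward, and 90.3% in diabetic cells, 35.2% upward. Groups without overlap and with higher stimulated values made up 30.6% of tested genes in control and 31.3% in diabetic cells. The p-values are from limma with Benjamini-Hochberg adjustment over all tested genes, and fold changes are log2 differences of CPM + 1 with their SE.

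Tnf, the ligand (chr17:35199381-35202007, minus strand), was at 34 to 41.1 CPM in control unstimulated libraries with a median of 39.8, and at 1091 to 1384 CPM after stimulation with a median of 1210.4. In diabetic cells it was at 31.7 to 38.5 CPM with a median of 35.2 before, and at 1159 to 1338 CPM with a median of 1234 after stimulation. No unstimulated library came near a stimulated one. The log2 fold change was 4.96 ± 0.05 in control (adjusted p = 2.0e-33) and 5.09 ± 0.05 in diabetic cells (adjusted p = 1.2e-33). It was the 139th highest of 11710 changes in either phenotype.

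The receptors responded unequally. Tnfrsf1a (chr6:125349362-125362484, plus strand) was at 166 to 187 CPM, median 175, in control unstimulated and at 455 to 527 CPM, median 478, in control stimulated libraries. In diabetic cells it was at 159.5 to 189 CPM, median 168, before and 473 to 495 CPM, median 482, after stimulation. The death-domain receptor thus rose by 1.46 ± 0.04 in control (adjusted p = 1.0e-23) and 1.50 ± 0.04 in diabetic cells (adjusted p = 6.3e-24) on the log2 scale. Tnfrsf1b (chr4:145213463-145246870, minus strand) was at 375 to 445 CPM, median 411, in control unstimulated and at 3727 to 4365 CPM, median 3963, in control stimulated libraries. Diabetic cells held it at 437 to 580.0 CPM, median 515, before and 2992 to 3658 CPM, median 3281, after stimulation. It rose by 3.28 ± 0.06 in control (adjusted p = 1.6e-28) and by 2.68 ± 0.06 in diabetic cells (adjusted p = 2.4e-26), more than Tnfrsf1a in every mouse.

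Adam17, the sheddase (chr12:21323509-21373632, minus strand), changed least. It was at 275 to 302 CPM, median 290.3, in control unstimulated and 366 to 389 CPM, median 378, in control stimulated libraries, and at 309 to 329 CPM, median 325, and 412 to 449 CPM, median 428, in diabetic cells. The libraries of the 4 groups followed each other without overlap. Its log2 fold change with stimulation was 0.39 ± 0.03 in control (adjusted p = 1.3e-12) and 0.41 ± 0.03 in diabetic cells (adjusted p = 3.1e-13), but it turned to -0.32 and -0.22 when libraries were scaled by total reads and to -0.58 and -0.54 with quantile normalization. Total reads moved the median of all genes by -0.62 in control and -0.57 in diabetic cells, median-of-ratios scaling by 0.30 and 0.26, and quantile normalization by 0.19 and 0.16. Set against the median of all genes, the change of Adam17 in control cells was 0.68 as deposited and 0.60 by total reads. It was 0.72 with median-of-ratios scaling but -0.47 after quantile normalization, so no direction with stimulation can be given for Adam17. The direction of the other 7 members was upward under every scaling. Exons of Adam17 share 311 bases, or 4.35%, with Iah1 on the opposite strand, which was at mean levels of 22.3 to 28.3 CPM in the 4 groups. No source used here says whether strand was used in counting.

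Of the adaptors, Traf1 was below Traf2 per kilobase of exon before stimulation and above it afterwards, without overlap in either phenotype. The order before stimulation depends on the exon lengths used, 8819 bases for Traf1 and 5101 for Traf2, since their CPM ranges overlapped. Traf1 (chr2:34941750-34961772, minus strand) was at 19.4 to 26.2 CPM, median 22.1, in control unstimulated and 1008 to 1320.4 CPM, median 1107, in control stimulated libraries. Diabetic cells held it at 22 to 25 CPM, median 23.7, before and 749 to 834 CPM, median 778, after stimulation. Its log2 fold change was 5.61 ± 0.06 in control (adjusted p = 2.6e-33) and 4.99 ± 0.06 in diabetic cells (adjusted p = 3.8e-32). Traf2 (chr2:25517982-25546940, minus strand) was at 21.5 to 26.4 CPM, median 24.2, in control unstimulated and 115 to 129 CPM, median 121, in control stimulated libraries. In diabetic cells it was at 20.8 to 25.5 CPM, median 24.1, before and 96.3 to 110.1 CPM, median 104, after stimulation. Its log2 fold change was 2.27 ± 0.05 in control (adjusted p = 8.9e-27) and 2.09 ± 0.05 in diabetic cells (adjusted p = 7.0e-26).

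Tnfaip3, which encodes the ubiquitin editor A20 (chr10:19000910-19015657, minus strand), rose most of the members. It was at 26.3 to 42.9 CPM, median 35.3, in control unstimulated and 2152 to 2465 CPM, median 2230.4, in control stimulated libraries. Diabetic cells held it at 38.7 to 49.6 CPM, median 43.2, before and 1941 to 2023 CPM, median 1978, after stimulation. The log2 fold change was 5.98 ± 0.07 in control (adjusted p = 9.9e-31), the 75th highest of 11710, and 5.48 ± 0.07 in diabetic cells (adjusted p = 7.1e-30), the 112th highest. Zfp36, which encodes the mRNA decay factor tristetraprolin (chr7:28376784-28380253, minus strand), was at 167 to 201 CPM, median 189, in control unstimulated and 1939 to 2388 CPM, median 2096, in control stimulated libraries. In diabetic cells it was at 142 to 167 CPM, median 148, before and 1773 to 1885 CPM, median 1809, after stimulation. Its level before stimulation was well above that of Tnfaip3 and its rise smaller, at 3.51 ± 0.05 in control (adjusted p = 2.0e-30) and 3.58 ± 0.05 in diabetic cells (adjusted p = 1.3e-30). Exons of Zfp36 share 125 bases, or 3.6%, with the antisense gene Gm44710, whose mean level was 0.455 to 0.709 CPM.

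Whether diabetes of the donor changed the pathway at rest was asked in unstimulated cells. Tnfrsf1b, Adam17 and Tnfaip3 were higher and Zfp36 lower in macrophages from diabetic mice. These are 4 of 8 members called, against 19.3% of all tested genes, with 9.16% called higher and 10.2% lower. Tnf, Tnfrsf1a, Traf1 and Traf2 did not pass the threshold.

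For Tnfrsf1b the log2 fold change was 0.33 ± 0.06 (adjusted p = 0.00012), and the groups overlapped only in that the highest control library, at 445 CPM, lay above the lowest diabetic one, at 437 CPM. Within the blocks in which the columns of the table stand, each with 3 mice of each phenotype, its log2 fold changes were 0.24 and 0.41, both past the threshold. Tnfaip3 was higher by 0.31 ± 0.07 (adjusted p = 0.0026), with overlapping groups, and by 0.14 (adjusted p = 0.18) and 0.49 (adjusted p = 0.016) within the column blocks. Adam17 was higher by 0.16 ± 0.03 (adjusted p = 0.00049) and its groups did not overlap, although within the blocks of fewer mice its changes of 0.13 and 0.18 came with adjusted p = 0.065 and adjusted p = 0.055. Zfp36 was lower, at a log2 fold change of -0.29 ± 0.05 (adjusted p = 0.00013), and every diabetic library was below every control library, if narrowly. Its changes within the column blocks were -0.34 and -0.25, with adjusted p = 0.00049 and adjusted p = 0.06. Groups of 6 without overlap made up 12.6% of all tested genes in this comparison, 5.27% with higher and 7.32% with lower diabetic values, and Adam17 and Zfp36 were the members among them.

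Tnf mRNA at rest differed by -0.13 ± 0.05 (adjusted p = 0.087) with overlapping groups. That value passed the threshold under array weights (adjusted p = 0.0093), within column block 1 (-0.22, adjusted p = 0.038), without control unstimulated replicate 3 (adjusted p = 0.027) and without diabetic unstimulated replicate 6 (adjusted p = 0.045). The log2 fold changes of the other members were -0.05 ± 0.04 for Tnfrsf1a (adjusted p = 0.52), 0.10 ± 0.06 for Traf1 (adjusted p = 0.28) and -0.04 ± 0.05 for Traf2 (adjusted p = 0.62), and their groups overlapped. Traf1 passed the threshold under array weights, at 0.12 (adjusted p = 0.042).

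**Figure D2:**
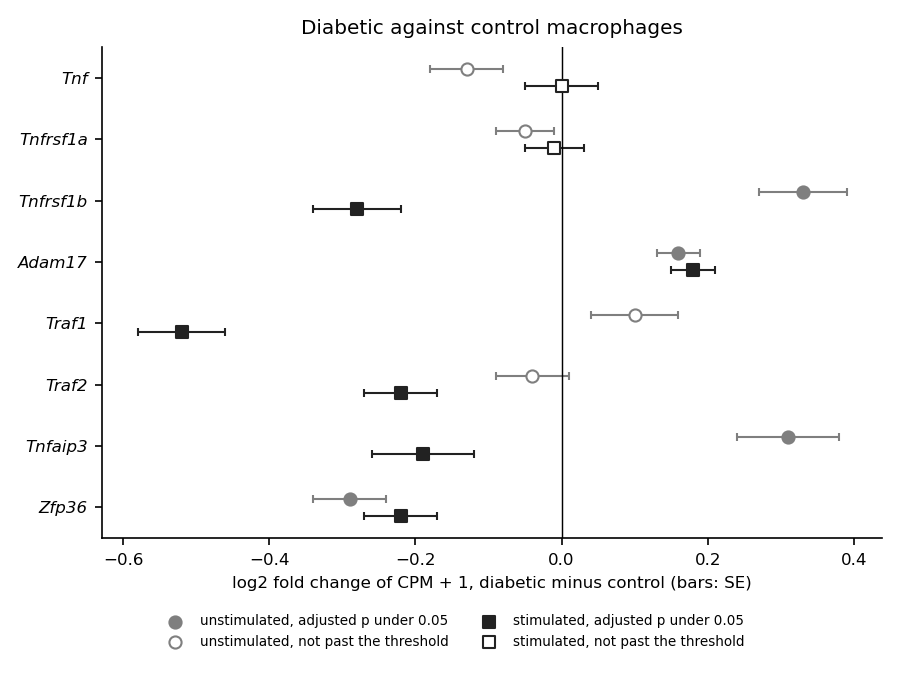
Log2 fold change of CPM + 1, diabetic minus control, for the 8 genes in unstimulated (grey circles) and stimulated cells (black squares), with SE bars; filled marks passed adjusted p under 0.05. Tnfrsf1b and Tnfaip3 lay above 0 at rest and below 0 after stimulation, Adam17 above and Zfp36 below 0 in both, and Traf1 lowest after stimulation at -0.52.

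After stimulation Tnf itself did not separate the phenotypes, while 6 other members did. Traf1, Tnfrsf1b, Traf2, Zfp36 and Tnfaip3 were lower and Adam17 was higher in diabetic cells. These 6 of 8 members stand against 51.7% of all tested genes called in this comparison, 29.8% higher and 21.9% lower. The groups of all 6 did not overlap, which held for 23.4% of tested genes.

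Traf1 fell furthest, at a log2 fold change of -0.52 ± 0.06 (adjusted p = 7.9e-08), the 405th lowest of 11710. The highest diabetic library, at 834 CPM, lay well below the lowest control library, at 1008 CPM. The fall was -0.39 and -0.64 within the column blocks and passed the threshold in both. Tnfrsf1b was lower, at -0.28 ± 0.06 (adjusted p = 0.00027), against its higher level at rest, and at -0.17 (adjusted p = 0.071) and -0.39 within the blocks. Traf2 was lower, at -0.22 ± 0.05 (adjusted p = 0.00039), and at -0.17 (adjusted p = 0.055) and -0.27 within the blocks.

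Of the brakes, Zfp36 was lower, at -0.22 ± 0.05 (adjusted p = 0.00092), at -0.12 (adjusted p = 0.096) and -0.31 within the blocks, and at -0.01 (adjusted p = 0.88) with quantile normalization. Tnfaip3 was lower, at -0.19 ± 0.07 (adjusted p = 0.032), a call that several settings ended. Its log2 fold change was -0.08 by total reads (adjusted p = 0.32), -0.01 with quantile normalization (adjusted p = 0.91) and -0.17 with array weights (adjusted p = 0.094). It was -0.15 (adjusted p = 0.072) and -0.22 (adjusted p = 0.12) within the blocks. Leaving out control stimulated replicate 1 (adjusted p = 0.056) or 3 (adjusted p = 0.082), or diabetic stimulated replicate 1 (adjusted p = 0.05) or 4 (adjusted p = 0.056), also ended the call. The diabetic libraries lay close together, with an SD of 31.2 CPM against 118 CPM in control cells.

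Adam17 was higher by 0.18 ± 0.03 (adjusted p = 2.1e-05), beside 0.16 at rest, and by 0.19 and 0.17 within the blocks, past the threshold in both. Tnf gave a log2 fold change of 0.00 ± 0.05 (adjusted p = 0.96), with means of 1229.8 ± 97.7 CPM (SD, n = 6) in control and 1231 ± 63.8 CPM in diabetic cells, and the groups overlapped. With quantile normalization Tnf was higher by 0.15 (adjusted p = 0.04). Tnfrsf1a gave -0.01 ± 0.04 (adjusted p = 0.85), and 0.09 (adjusted p = 0.029) by total reads and 0.13 (adjusted p = 0.01) with quantile normalization.

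Whether the response itself differed was tested as the interaction, the response in diabetic minus that in control cells. It was called for 4 of 8 members, all with the smaller response in diabetic cells, against 32% of all tested genes, of which 12.4% had the smaller (or more negative) response and 19.6% the larger. Tnfrsf1b, Traf1 and Tnfaip3 had responses smaller by 0.50 to 0.62 on the log2 scale, and Traf2 by 0.18.

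The responses of single mice showed the same order. For Tnfrsf1b the log2 response was 3.14 to 3.54, median 3.23, in control and 2.41 to 3.06, median 2.71, in diabetic mice. For Traf1 it was 5.49 to 5.81, median 5.61, in control and 4.86 to 5.18, median 5.0, in diabetic mice. For Tnfaip3 it was 5.62 to 6.50, median 5.94, in control and 5.26 to 5.62, median 5.50, in diabetic mice. No diabetic mouse reached the lowest control mouse for Tnfrsf1b and Traf1, and for Tnfaip3 the closest mice were level to 3 decimals, at 5.623. Mouse responses without overlap made up 14.6% of tested genes, 8.95% with the larger and 5.61% with the smaller response in diabetic mice. The interaction was -0.61 ± 0.08 for Tnfrsf1b (adjusted p = 4.9e-06), -0.62 ± 0.08 for Traf1 (adjusted p = 5.6e-06) and -0.50 ± 0.10 for Tnfaip3 (adjusted p = 0.00057). These calls held in all alternatives run. Within the column blocks the values were -0.41 and -0.80 for Tnfrsf1b, -0.51 and -0.72 for Traf1 and -0.29 and -0.71 for Tnfaip3.

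For Traf2 the responses were 2.23 to 2.37, median 2.26, in control and 1.88 to 2.35, median 2.10, in diabetic mice, and they overlapped. The interaction was -0.18 ± 0.07 (adjusted p = 0.046) and lay near the threshold: of 39 alternatives 22 ended the call, with values down to -0.09 with quantile normalization (adjusted p = 0.37). It was -0.10 (adjusted p = 0.47) and -0.25 (adjusted p = 0.066) within the column blocks.

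Responses of the remaining members were not called as different. Tnf rose by 4.85 to 5.11, median 4.94, in control and by 4.95 to 5.23, median 5.12, in diabetic mice, an interaction of 0.14 ± 0.08 (adjusted p = 0.17). It passed the threshold by total reads (0.21, adjusted p = 0.025), with quantile normalization (0.30, adjusted p = 0.009) and with array weights (0.18, adjusted p = 0.049), in each with the larger response in diabetic cells. The interaction was 0.07 ± 0.07 for Zfp36 (adjusted p = 0.48), but 0.30 (adjusted p = 0.003) with quantile normalization. It was 0.03 ± 0.06 for Tnfrsf1a (adjusted p = 0.69) and 0.03 ± 0.04 for Adam17 (adjusted p = 0.69).

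**Figure D3:**
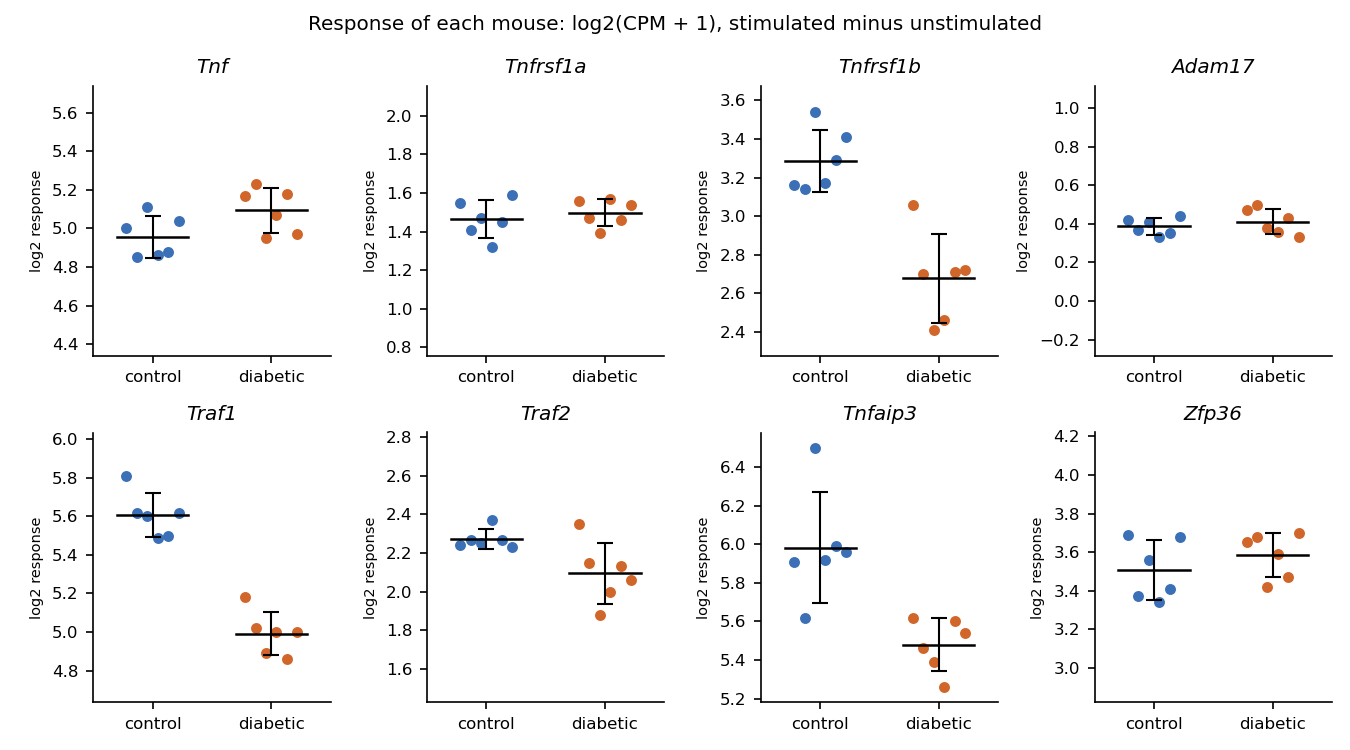
Log2 response of each mouse, the stimulated minus the unstimulated value of log2(CPM + 1), for the 8 genes; points are mice, black lines the mean and SD of 6, and each panel has its own range of at least 1.4 log2 units. The phenotypes were apart for Tnfrsf1b and Traf1, level at one point for Tnfaip3, and overlapping for the other 5 genes.

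Averaged over both states of a mouse, Adam17 was higher by 0.17 ± 0.03 (adjusted p = 5.4e-05) and Zfp36 (-0.25 ± 0.04, adjusted p = 2.8e-05), Traf1 (-0.21 ± 0.05, adjusted p = 0.0024) and Traf2 (-0.13 ± 0.03, adjusted p = 0.005) were lower in diabetic mice. These 4 members compare with 44.7% of all tested genes, 24.3% higher and 20.4% lower. The call of Traf2 ended by total reads (-0.06, adjusted p = 0.12), with quantile normalization (-0.09, adjusted p = 0.055) and within column block 1 (-0.12, adjusted p = 0.08). Tnfrsf1b (0.03 ± 0.03, adjusted p = 0.48) and Tnfaip3 (0.06 ± 0.04, adjusted p = 0.23), whose differences had opposite signs in the states, were not called, nor were Tnf (-0.06 ± 0.04, adjusted p = 0.22) and Tnfrsf1a (-0.03 ± 0.03, adjusted p = 0.50). Tnfrsf1b was called higher by total reads (0.09, adjusted p = 0.01) and with quantile normalization (0.10, adjusted p = 0.017), and so was Tnfaip3 (0.13, adjusted p = 0.021, and 0.18, adjusted p = 0.024).

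Ratios of a pair of members within a library do not depend on the scaling of that library; these were chosen after the values were seen and are given without a test. The log2 ratio of Tnfaip3 to Tnf was -0.37 to 0.06 in control and 0.14 to 0.47 in diabetic unstimulated libraries, without overlap, and 0.68 to 1.03 in control and 0.56 to 0.79 in diabetic stimulated ones. More A20 mRNA stood beside each Tnf mRNA in diabetic cells at rest, and after stimulation the ranges overlapped. The ratio of Zfp36 to Tnf went from 2.02 to 2.56 in control and 1.88 to 2.27 in diabetic cells at rest to 0.64 to 0.98 and 0.45 to 0.68 after stimulation, so Tnf gained on its decay factor in both phenotypes. The ratio of Traf1 to Tnf was -1.08 to -0.37 in control and -0.68 to -0.43 in diabetic cells at rest, and -0.30 to 0.13 and -0.77 to -0.49 after stimulation. Stimulated control and diabetic libraries were thus apart, and in diabetic cells Traf1 kept about its resting ratio to Tnf.

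The ratio of Traf1 to Traf2 was -0.30 to 0.07 and -0.10 to 0.08 at rest in control and diabetic cells, and 3.09 to 3.35 and 2.79 to 3.0 after stimulation. The adaptors were near parity at rest by CPM, and stimulated libraries of the phenotypes did not overlap. The ratio of Tnfrsf1b to Tnfrsf1a was 1.0 to 1.37 in control and 1.45 to 1.72 in diabetic cells at rest, and 2.94 to 3.10 and 2.61 to 2.95 after stimulation. It was higher in all diabetic libraries before, and lower in most of them after the stimulus. The ratio of Adam17 to Tnf was 2.77 to 3.07 in control and 3.09 to 3.28 in diabetic cells at rest, and -1.87 to -1.50 and -1.59 to -1.43 after stimulation. Sheddase mRNA thus exceeded Tnf mRNA at rest and was exceeded by it after stimulation, counted in CPM. For this ratio the phenotypes were narrowly apart at rest and overlapped after stimulation.

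The genes whose library-to-library deviations from the group means were most like those of a member were taken as a description, over 24 libraries that share depth and scaling. They were Iah1 (r = 0.83), Bcl2a1d (0.74) and Gramd3 (0.74) for Tnf, and Ncstn (r = 0.80), Cmtm7 (0.80) and Ints12 (0.79) for Tnfrsf1a. For Tnfrsf1b they were Smap2 (r = 0.84), Slc39a1 (0.83) and Slc2a6 (0.81), and for Adam17 they were Rpn1 (r = 0.77), Cry1 (0.74) and Nipsnap3b (0.72). The closest to Traf1 were Gm2065 (r = 0.90), 1600014C10Rik (0.84) and Cttnbp2nl (0.81), and to Traf2 Arfgap2 (r = 0.77), AI846148 (0.74) and Pira2 (0.74). Tnfaip3 was closest to Fzd7 (r = 0.89), Galnt9 (0.87) and Pgbd5 (0.85), of which the last 2 were near 0 CPM in their lowest group, and Zfp36 to Yipf4 (r = 0.80), Map2k3 (0.78) and Mvp (0.76). Gm2065 and Bcl2a1d were low as well, with means of 0.574 and 0.629 CPM in their lowest group. No member was among the 3 closest genes of another.

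The wider pathway was followed in 9 lists from which the members were left out; Ripk1 stands in 2 of them. Counts are of genes past the threshold, to be read beside the percentages of all tested genes above, and the lists received no test of their own. List medians stand beside a median over all tested genes of -0.30 for the response in control cells and 0.03 for diabetic against control in stimulated cells.

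Of 16 further ligands of the TNF superfamily 12 were in the table and 11 tested. In control cells 7 rose and 4 fell with stimulation (median 2.30), led by Tnfsf15 (5.14 ± 0.10), Tnfsf4 (5.97 ± 0.11), Tnfsf9 (3.36 ± 0.08) and Tnfsf10 (6.88 ± 0.13), the last of which encodes the death ligand TRAIL. In unstimulated diabetic cells none was higher and 4 were lower, Tnfsf14 (-0.73 ± 0.11, adjusted p = 1.1e-05), Tnfsf10 (-0.56 ± 0.13, adjusted p = 0.0025), Tnfsf8 (-0.42 ± 0.12, adjusted p = 0.0096) and Tnfsf9 (-0.24 ± 0.08, adjusted p = 0.023). In stimulated diabetic cells 1 was higher and 6 lower (median -0.23). Tnfsf8, the ligand of CD30, was at 19.7 to 34.2 CPM, median 26.8, in control and 7.54 to 12.1 CPM, median 11.2, in diabetic stimulated libraries, which did not overlap (-1.26 ± 0.12, adjusted p = 3.7e-09). Tnfsf10 was at 328 to 473 CPM, median 394, and 207 to 242 CPM, median 218, again without overlap (-0.83 ± 0.13, adjusted p = 1.1e-05).

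Of 25 further receptors of the superfamily 18 were in the table and 15 tested. With stimulation 8 rose and 6 fell in control cells, but 6 rose and 9 fell by total reads. Cd40, a co-stimulatory receptor of macrophages and B cells, rose from 8.73 to 15 CPM, median 11.1, to 3522 to 4057 CPM, median 3630.1 (8.24 ± 0.08), and Fas, a death receptor, by 5.26 ± 0.07. At rest 2 receptors were higher in diabetic cells, Tnfrsf8 (0.42 ± 0.07, adjusted p = 8.4e-05) and Fas (0.40 ± 0.07, adjusted p = 8.7e-05), and 3 lower. After stimulation 1 was higher, Tnfrsf21 (0.68 ± 0.10, adjusted p = 1.5e-06), and 6 lower. Tnfrsf11a, which encodes RANK, the receptor that drives osteoclast formation, was at 215 to 269 CPM, median 241, in control and 124 to 169 CPM, median 134, in diabetic stimulated libraries, without overlap (-0.80 ± 0.07, adjusted p = 1.6e-09). Like Tnfrsf1b, Fas and Tnfrsf8 had the smaller response in diabetic cells (interaction -0.58 ± 0.10, adjusted p = 5.5e-05, and -0.58 ± 0.10, adjusted p = 0.00011).

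Of 19 genes of the receptor-proximal complex and its kinases, all tested, 14 rose and 4 fell with stimulation in control cells, against 6 and 12 by total reads. Birc3, a ubiquitin ligase brought in by TRAF2, rose by 3.33 ± 0.04. In stimulated diabetic cells 3 were higher and 7 lower. Ikbkg, the regulatory subunit of the IkB kinase, was higher, at 88.7 to 123 CPM, median 98.9, in control and 169.5 to 209 CPM, median 188, in diabetic libraries without overlap (0.90 ± 0.08, adjusted p = 3.6e-09), and was also higher at rest (0.46 ± 0.08, adjusted p = 0.00012). Tab2, an adaptor of the kinase TAK1, was lower in both states (-0.26 ± 0.04, adjusted p = 4.9e-06 at rest, and -0.33 ± 0.04, adjusted p = 3.6e-08).

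In the TRAF family, the genes other than Traf1 and Traf2 were not lower in diabetic cells. Of 5 further genes 4 were tested, and in stimulated diabetic cells 3 were higher and none lower: Traf3 (0.35 ± 0.05, adjusted p = 3.2e-06), Traf5 (0.27 ± 0.07, adjusted p = 0.0036) and Traf6 (0.11 ± 0.03, adjusted p = 0.0061). Between 2 and 4 were higher and none lower under the other scalings, and Traf6 missed the threshold with median-of-ratios scaling. Traf3, which holds back noncanonical NF-kB signalling, was at 68.9 to 88.5 CPM, median 82.7, in control and 90.8 to 109.9 CPM, median 107, in diabetic libraries, without overlap. With stimulation 2 TRAF genes rose and 2 fell in control cells, and all 4 fell by total reads.

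Of 10 genes of TNF-driven cell death, all tested, 7 rose and 3 fell with stimulation in control cells, and 5 rose and 4 fell by total reads. Cflar, which encodes the caspase-8 inhibitor cFLIP, rose by 4.13 ± 0.04 and Mlkl, the executor of necroptosis, by 3.44 ± 0.05. In diabetic cells none was higher and 5 were lower at rest, and none was higher and 7 were lower after stimulation (median -0.21). Casp8 was at 241 to 297 CPM, median 272, in control and 195 to 221 CPM, median 204, in diabetic stimulated libraries without overlap (-0.38 ± 0.04, adjusted p = 7.4e-08).

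Of 13 partners of A20 and other deubiquitinases 12 were in the table and tested. With stimulation 11 rose and 1 fell in control cells, among them Tnip3 (4.31 ± 0.04), Tnip1 (3.05 ± 0.03) and Tax1bp1 (3.08 ± 0.04), which encode adaptor proteins of A20. In stimulated diabetic cells none was higher and 7 were lower, against 3 higher and 4 lower by total reads and 1 higher and 2 lower with quantile normalization. Otulin, a deubiquitinase of linear chains, was at 37 to 43 CPM, median 39.7, in control and 26.4 to 33.3 CPM, median 28, in diabetic libraries, without overlap (-0.46 ± 0.05, adjusted p = 1.6e-08). At rest Usp18, an interferon-induced protease of ISG15, was at 20.5 to 51.9 CPM, median 27.3, in control and 10.2 to 13.7 CPM, median 12.7, in diabetic libraries (-1.18 ± 0.14, adjusted p = 2.0e-06), opposite in direction to Tnfaip3.

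Of 6 further genes of shedding and TNF processing 5 were in the table and tested. Rhbdf2, whose product iRhom2 carries ADAM17 to the cell surface in macrophages, rose by 3.12 ± 0.04 in control cells, and Furin, which cuts the prodomain of ADAM17, by 3.23 ± 0.05. In stimulated diabetic cells Rhbdf2 was at -0.10 ± 0.04 (adjusted p = 0.046) and Furin at -0.21 ± 0.05 (adjusted p = 0.0012), both lower, while the related sheddase Adam10 was higher by 0.17 ± 0.04 (adjusted p = 0.001). Rhbdf2 missed the threshold by total reads, with quantile normalization and in both column blocks, and Furin with quantile normalization. Adam10, like Adam17, was also higher at rest (0.21 ± 0.04, adjusted p = 0.00041), and missed the threshold within column block 2 in both states.

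Of 17 further genes of AU-rich element mRNA turnover, all tested, 8 rose and 9 fell with stimulation in control cells, and the split turned to 11 and 6 with median-of-ratios scaling. Zc3h12a, the endonuclease regnase-1, rose by 3.50 ± 0.04, and Dusp1, the phosphatase that switches off p38, by 4.17 ± 0.08, while Mapk14, the kinase p38 alpha, fell (-3.04 ± 0.05). In unstimulated diabetic cells none was higher and 3 were lower, led by Zfp36l1, a paralogue of Zfp36, at 104 to 129 CPM, median 118, in control and 68 to 88.2 CPM, median 84.6, in diabetic libraries without overlap (-0.53 ± 0.07, adjusted p = 3.8e-06). Dusp1 was lower, at -0.52 ± 0.08 (adjusted p = 1.8e-05). In stimulated diabetic cells 6 were higher and 5 lower, with Mapk14 higher by 0.47 ± 0.05 (adjusted p = 4.9e-08), and 11 were higher and 1 lower by total reads.

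Of 11 genes of NF-kB and its inhibitors, all tested, 10 rose and none fell with stimulation in control cells (median 3.09), with Nfkbia, the inhibitor IkB alpha, up by 4.40 ± 0.04. In stimulated diabetic cells 1 was higher and 7 were lower (median -0.16), against 3 and 3 by total reads and 2 and 3 with quantile normalization. Nfkbiz, a nuclear IkB protein, was at 651 to 897 CPM, median 722, in control and 423 to 463 CPM, median 440.2, in diabetic stimulated libraries without overlap (-0.73 ± 0.06, adjusted p = 4.3e-10), and it was lower at rest as well (-0.69 ± 0.06, adjusted p = 6.3e-09). Rel, the c-Rel subunit, was lower after stimulation, at -0.42 ± 0.05 (adjusted p = 2.5e-07) with the smaller response (interaction -0.49 ± 0.07, adjusted p = 1.7e-05), as for Traf1, Tnfrsf1b and Tnfaip3. The interaction was called for Rel alone of the 11 genes and not for the other 10, against 32% of all tested genes.

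**Figure D4:**
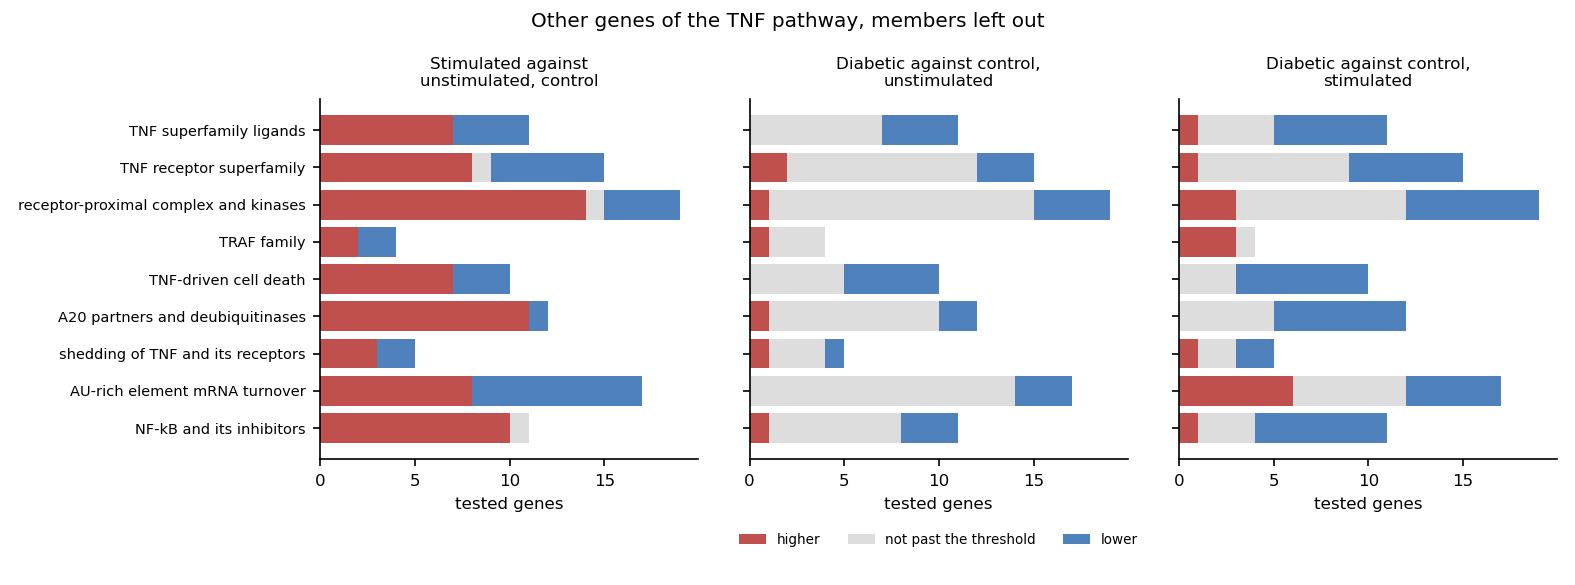
Number of tested genes higher, lower and not past the threshold in 9 lists of the TNF pathway, members left out, for the response in control cells and for diabetic against control cells in each state. In stimulated cells lower genes outnumbered higher ones in 7 of 9 lists, of which shedding did not show this by total reads or with quantile normalization and NF-kB not by total reads, and the TRAF family had 3 higher and none lower.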

How the data were processed

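RNA-seq was made from bone marrow-derived macrophages of 12 mice, with 24 libraries in 4 groups of 6, taken from the sample labels. RNA came from a mirVana extraction and mRNA libraries kept strand, per the labels' protocols, although other labels name genomic DNA. Per the submitters' processing notes, STAR 2.5.3a, R 3.3.3 and edgeR 3.16.5 were used, with GRCm38 or mm10; no source used here names the counter. What the authors deposited is log2 CPM per gene, and the values show a prior of 0.25 reads and an effective library size. The floor of -6.67 was subtracted on the linear scale to give CPM, and 100% of values were whole reads within 0.01 read. The design had foreseen CPM, and the main test was run on the CPM recovered from the log2 values. No negative binomial count test was run, and voom on the recovered reads was among the alternatives. The libraries held 16754771 to 34130060 reads in listed genes, which limits low genes; floors of 3 reads cover counting error only.

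Genes with at least 1 CPM in 6 libraries were tested on log2(CPM + 1) by limma 3.58.1 (R 4.3.3; trend, robust empirical Bayes) in a model of 4 group means with 20 residual degrees of freedom, two-sided, adjusted by Benjamini-Hochberg at 0.05 over 11710 genes. For the mean of both states, 12 mouse means were fitted. Adding 1 understates changes of low genes. Per the series' design text, libraries of a phenotype with the same number come from 1 mouse. Their deviations from the group means had a mean correlation of 0.12 (range -0.08 to 0.4), and 5 of 12 mice exceeded 0.1. Columns stand in 2 blocks of 12 libraries with 3 mice of each phenotype; the labels do not call them a batch.

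The members and lists were chosen with earlier results of these data known. Named genes are all members, up to 4 genes of each list past the threshold with the smallest p in a comparison, and the 3 genes most like each member. Promoters are from RefSeq (GRCm38.p6) and 3' untranslated regions from the longest coding transcript of GENCODE M21. All 8 members matched both. Values of some listed genes and one sequence are not reported here. Printed promoter bases stop at the nearest upstream annotated exon. Alternatives changed the pseudocount, the filter, the scaling, the weights, the model or the libraries used. The test was checked on simulated data. Tables and figures used Python 3.11.15, pandas 2.3.3, numpy 2.4.6 and matplotlib 3.10.9.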

Additional observations from a re-analysis of the deposited data

Results flagged for a closer look

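By the interaction test of limma, adjusted over all tested genes, the response to stimulation differed between control and diabetic cells for 4 of 8 members. Over all tested genes it differed for 32%, and 12.4% had the smaller (or more negative) response in diabetic cells. The response of these 4 members was smaller in diabetic cells, by a log2 difference of -0.62 for Traf1 (adjusted p = 5.6e-06) and -0.61 for Tnfrsf1b (adjusted p = 4.9e-06). For Tnfaip3 the difference was -0.50 (adjusted p = 0.00057). For Traf2 it was -0.18 (adjusted p = 0.046), a call that 22 of 39 alternatives ended. All 6 diabetic mice had smaller responses than all 6 control mice for Traf1 and Tnfrsf1b, whereas for Tnfaip3 the closest mice were level at 5.623 and for Traf2 the phenotypes overlapped. Mouse responses without overlap and smaller in diabetic mice made up 5.61% of tested genes. No library stood apart from its group by Dixon's criterion (0.625) in any of the 32 combinations of member and group.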

How the results depend on the processing

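Over 48 results of members and 40 alternatives, 1872 values were computed: 1810 kept direction and side of the threshold, 42 lost and 14 gained a call, and 6 reversed. The reversals were Adam17 with stimulation, at -0.32 in control and -0.22 in diabetic cells by total reads and -0.58 and -0.54 with quantile normalization, and Tnfrsf1a in stimulated diabetic cells, at 0.09 by total reads and 0.13 with quantile normalization. Members called fell to 2 (from 4) at rest within column block 2 and to 2 (from 6) after stimulation within column block 1. All genes called in the same blocks 1 and 2 were 1506 and 861 at rest (2265 in all libraries, 3502 with array weights), 2440 and 1642 for the interaction (3747) and 3386 and 3091 for the mean of both states (5229). A block has fewer samples. In stimulated cells the split of higher and lower genes went from 3494 and 2565 to 5213 and 1528 by total reads.

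Leaving out 1 library at a time, members called ranged from 8 to 8 in both responses, 4 to 5 at rest, 5 to 6 after stimulation, 3 to 4 for the interaction and 4 to 4 for the mean of both states. All genes called ranged from 10617 to 10703 and 10495 to 10607 in the control and diabetic responses, 1847 to 2395 at rest, 5545 to 6170 after stimulation, 3445 to 4003 for the interaction and 4720 to 5234 for the mean.

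With the mouse as a replicate block (random effect) 8, 8, 4, 6, 4 and 4 members were called in the 6 comparisons, as without it, and 3988 genes for the interaction; the pairing changed no call of a member. A fixed block gives no value for comparisons between phenotypes, nor do voom for the mean of both states or fits on the compared groups alone for the interaction and the mean.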
